A study of Mus musculus with 8 samples.

Results

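The insulin-like growth factor (IGF) system of mouse mammary epithelium was followed through 10 genes: the ligands Igf1 and Igf2, the receptors Igf1r and Igf2r, and the binding proteins Igfbp2, Igfbp3, Igfbp4, Igfbp5, Igfbp6 and Igfbp7. They were taken by gene symbol from a table of 49671 genes, in which each stood on 1 row. All 10 were among the 16900 genes that passed the filter on low values (at least 40 in at least 2 libraries), Igfbp2 through its basal libraries alone. The 8 RNA-seq libraries came from sorted mammary cells of female mice, 2 libraries in each of 4 groups. CD1 luminal and CD1 basal cells came from mice of the CD1 strain. DNp63 luminal and DNp63 basal cells were the GFP-positive cells of K8rtTA/TetOCre/Rosa26-DNp63-IRES-GFP mice. In those mice the keratin 8 promoter drives a doxycycline-dependent activator, which turns on Cre, and Cre turns on ΔNp63, the p63 isoform of basal cells, together with GFP. Luminal cells were CD24+CD29low and basal cells CD24+CD29high, after removal of CD45+, CD31+ and CD140a+ cells, and 40000 luminal or 5000 basal cells were taken for each library. The labels and notes used here give neither the doxycycline schedule of the DNp63 mice, nor ages, nor whether a library pooled animals. Strain, GFP sorting and any doxycycline accompanied the transgenes, so their effects cannot be told apart from that of ΔNp63. The labels do not say that the 2 libraries of a group came from separate mice, and the p-values measure only the spread between these libraries, which may be technical.

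IGF1 and IGF2 are secreted hormones that promote growth and survival through IGF1R, a receptor tyrosine kinase close to the insulin receptor. IGF2R, the mannose 6-phosphate receptor, has no kinase and carries IGF2 to the lysosome. The binding proteins hold IGFs outside the cell, can block or prolong their action, and release them when proteases such as PAPP-A cut them. In the mammary gland, stromal Igf1 acts downstream of growth hormone on ductal growth, and Igfbp5 is known for its rise during involution.

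Values are reads per 20000000 assigned reads in a library, as the authors scaled them. Reads recovered from the scaled values numbered 4136986 to 7206700 per library, so that 1 read was worth 2.78 to 4.83. Trp63, the gene of p63, checked the labels: it stood at 61 and 45 in CD1 luminal and at 1297 and 1460 in DNp63 luminal libraries. In basal cells it was 5457 and 7079 for CD1 and 8088 and 8306 for DNp63 mice. The gates carried their own markers: 12 of 12 basal markers, among them Krt5, Krt14 and Trp63, were called higher between the CD1 gates, and 12 of 12 luminal markers, among them Krt8 and Krt18, were called lower. Among the basal markers, Snai2 passed the filter only through its basal libraries. Of all tested genes 24.2% were called higher and 20.1% lower between the CD1 gates. That is also the background for the counts of other marker lists between those gates below. In DNp63 basal against CD1 basal cells 6 of the 12 luminal markers were called lower and 0 of 12 basal markers were called (1 at an unadjusted p under 0.05 in limma, 0 by voom). Of all tested genes 0.521% were called lower and 0.195% higher there, so the count of 0 basal markers is near the background. Markers of vessels stood in the basal gate as well. Summed over 16 endothelial genes, the values were 3979 to 5295 in the 4 luminal libraries, 73924 to 76565 in CD1 basal against 52437 to 71242 in DNp63 basal libraries, although CD31, the product of Pecam1, had been used to remove such cells. Over 11 pericyte genes the sums were 9729 to 12393 in luminal and 20732 to 29573 in basal libraries. Of those genes 9 were called higher between the CD1 gates (median log2 difference of the list 3.75), with Rgs5 at 369 and 275 against 8776 and 10073. Kcnj8, Higd1b and Ndufa4l2 were under the filter value in all 4 luminal libraries and entered the test through basal libraries alone. Anpep and Notch3, at 6135 and 5255 in the first CD1 luminal library, made up most of the luminal sums and were not higher in basal cells. The sums were, over 12 adipocyte genes, 3004 to 4732 in luminal and 17878 to 31757 in basal libraries. Of these 12 genes, 10 were called higher between the CD1 gates. Adipoq, Plin1, Cidec, Car3, Lep, Retn and Cfd passed the filter only through their basal libraries. Fabp4 alone, at 13967 to 21865, made up most of the basal sums, whereas Adipoq was at 37 to 160 in those libraries. Lipe and Pnpla2, at 1064 and 2170 in the first CD1 luminal library, made up most of the luminal sums and were not higher in basal cells. Over 16 fibroblast genes the sums were 20112 and 56113 in CD1 luminal and 32947 to 35327 in DNp63 luminal libraries. In basal libraries they were 28487 and 63207 for CD1 and 92106 to 116822 for DNp63 mice. Gsn was the largest part of the first CD1 luminal sum, at 9694, and of the DNp63 luminal sums, at 11681 and 15968. Unlike the summed list, Gsn was lower in the second CD1 luminal library, at 8187. Over 13 immune genes the sums were 1603 to 2507 in luminal and 1910 to 4483 in basal libraries. Of these markers, Lep, the adipocyte hormone leptin, was at 0 in the 4 luminal libraries, and no other marker was at 0 in both libraries of a group. The part of such cells in the results on the IGF genes was not tested. In bulk samples, fewer cells of a type cannot be told apart from less RNA per cell.

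Most IGF genes were called higher in the basal gate, in both mice. In CD1 basal against CD1 luminal cells, 7 of 10 were called higher and 0 lower in limma's moderated test, against 44.3% of all tested genes called, 24.2% higher and 20.1% lower. Their median log2 difference was 1.78, against -0.01 for all tested genes. In DNp63 basal against DNp63 luminal cells 9 of 10 were called higher and 1 lower, with 49.2% of all genes called, 24.9% higher and 24.4% lower and medians of 2.82 and -0.08. In DNp63 basal against CD1 luminal cells 8 were called higher and 1 lower (all genes 47.2%, with 25.1% higher and 22.2% lower, medians 2.00 and -0.01). These gate comparisons share libraries with one another. Without the second CD1 basal library 4 of the 10 genes were called between the CD1 gates, Igf1, Igf2 and Igfbp4 being lost (adjusted p = 0.169, 0.0575 and 0.0598).

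Between mice the calls were few. In DNp63 luminal against CD1 luminal cells 1 of 10 was called lower, Igfbp5, and 0 higher, against 4.43% of all genes called, 1.78% lower and 2.65% higher, with a median of -0.59 against 0.01 for all tested genes. In DNp63 basal against CD1 basal cells none of the 10 was called by limma, with 0.716% of all genes called, 0.195% higher and 0.521% lower. There, 2 of the 10 had an unadjusted p under 0.05, and limma voom on recovered reads called 1, Igfbp3. The test of whether the mouse difference itself differed between the gates (basal mouse difference minus luminal mouse difference) called none of the 10, and 0.343% of all genes, 0.0828% higher and 0.26% lower. In that test 4 of the 10 had an unadjusted p under 0.05, and voom called 0. The percentages of all genes given here are for adjusted p. No share of all genes at unadjusted p was computed, so the counts at unadjusted p have no background beside them.

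**Figure D1:**
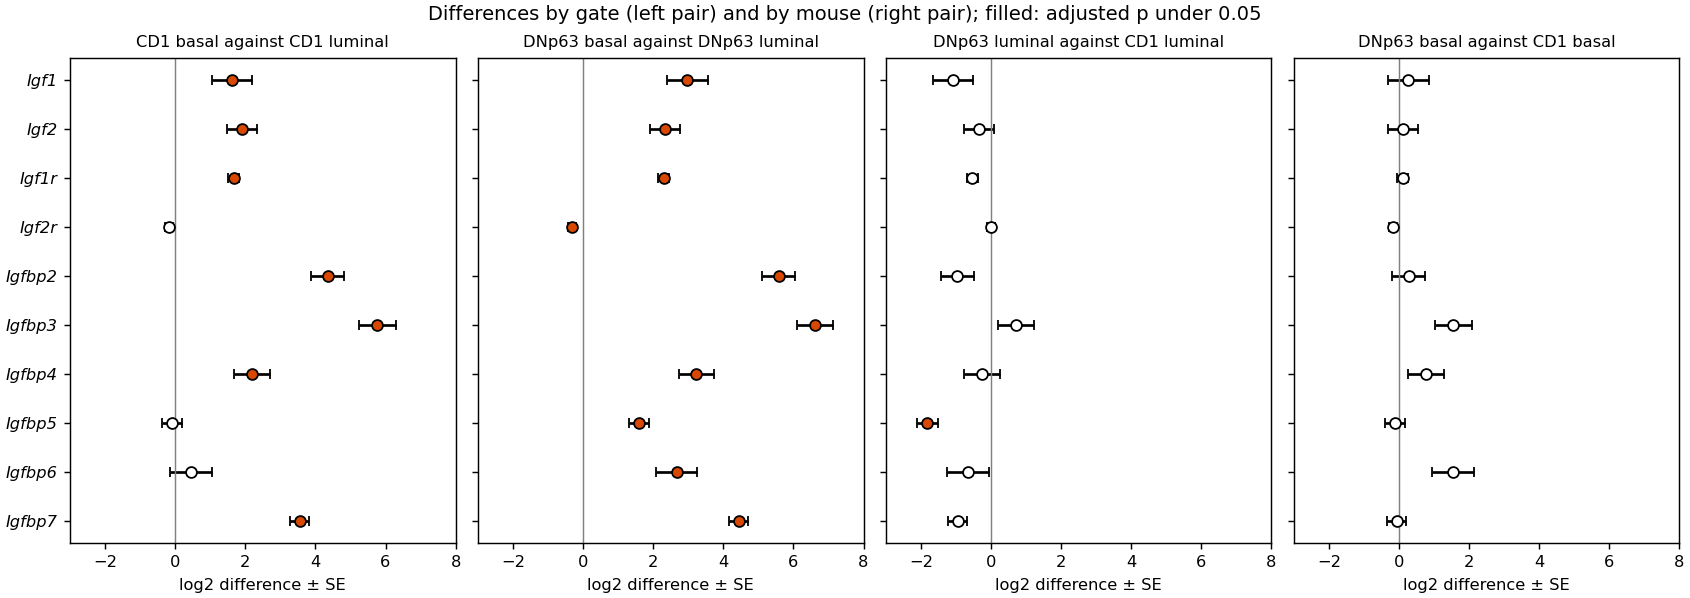
Log2 differences (horizontal axis, in log2 units) of the 10 IGF genes in the gate comparisons (left pair of panels) and the mouse comparisons (right pair), with bars for the standard error and filled points for adjusted p under 0.05. Igfbp3 has the largest gate difference, 5.77 in CD1 and 6.61 in DNp63 cells, and Igfbp5 is the only filled point between mice (-1.81).

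Igf1, the ligand that the stroma of the gland is known to make, was low in this sort and higher in basal cells. Its values were 89 and 438 in the CD1 luminal, 117 and 75 in the DNp63 luminal, 614 and 663 in the CD1 basal and 730 and 832 in the DNp63 basal libraries. The second CD1 luminal library stood apart from the other luminal libraries and close to the basal ones, but the gates did not overlap. Igf1 (ENSMUSG00000020053, chromosome 10, 87858265 to 87937042, plus strand of GRCm38) rose by 2.98 (SE 0.579, adjusted p = 0.00294) from DNp63 luminal to DNp63 basal cells on the log2 scale. Its difference between the CD1 gates was 1.62 (SE 0.579, adjusted p = 0.0484). That call was lost in 7 of the 8 fits that left out 1 library, held only without the second CD1 luminal library, and shrank to 0.53 (adjusted p = 0.179) without the first. It was also lost in 5 of 9 other settings, among them a pseudocount of 1 (adjusted p = 0.0581). Against CD1 luminal cells, DNp63 basal cells were called higher (1.89, adjusted p = 0.0252), but not without the first (adjusted p = 0.0864) or second (adjusted p = 0.115) DNp63 basal library, with no filter (adjusted p = 0.058) or with only the compared groups (adjusted p = 0.0608). Leaving out 1 library, that difference was 0.84 to 3.05, the lowest without the first and the highest without the second CD1 luminal library. The difference of DNp63 luminal from CD1 luminal cells, -1.09, was not called (adjusted p = 0.398). Without the first CD1 luminal library it was called (-2.19, adjusted p = 0.00634), as was the difference between the mouse effects of the gates (2.50, adjusted p = 0.0332). The same second CD1 luminal library held more fibroblast transcripts than the first, with Col1a1 at 11506 against 692, Col3a1 at 13018 against 993 and Pdgfra, which encodes CD140a, at 1049 against 196. Of the 16 fibroblast genes, 2 were called higher between the CD1 gates, where 24.2% of all genes were, and 7 between the DNp63 gates, where 24.9% were. Voom called 2 and 11. The part of fibroblasts in the Igf1 values was not tested. Serping1 (Pearson r = 0.992), a complement inhibitor, and Mitf (r = 0.991) had the log2 profiles most like Igf1 over the 8 libraries, with the gates and the library contents in common.

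Igf2, the imprinted fetal ligand, was also low. The CD1 luminal libraries had 82 and 86, DNp63 luminal 87 and 51, whereas CD1 basal had 229 and 492 against 283 and 474 for DNp63 basal. Basal libraries were all above luminal ones, and within each gate the mice overlapped. Igf2 (chromosome 7, 142650766 to 142666816, minus strand) rose by 1.89 (SE 0.427, adjusted p = 0.0069) between the CD1 gates and by 2.35 (SE 0.427, adjusted p = 0.00207) between the DNp63 gates. The first of these calls was lost without the second CD1 basal library (1.33, adjusted p = 0.0575). These values rest on 13 to 123 reads per library. In GENCODE M21, 62.8% of the exon bases of Igf2 are shared with Gm49394, a gene on the same strand that was not in the table, and how reads there were assigned is not stated.

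The receptors differed from each other. Igf1r, the signalling receptor, stood at 1710 and 2001 in CD1 luminal, 1360 and 1303 in DNp63 luminal, with 5782 and 6088 in CD1 basal against 7334 and 5662 in DNp63 basal libraries. All basal libraries were above all luminal ones, and the DNp63 luminal libraries were the lowest, without overlap. Igf1r (chromosome 7, 67952827 to 68233668, plus strand) rose by 1.66 (SE 0.148, adjusted p = 4.94e-05) between the CD1 gates and by 2.30 (adjusted p = 6.67e-06) between the DNp63 gates, and both calls held in all 17 alternative settings. In DNp63 luminal against CD1 luminal cells the difference was -0.53 (SE 0.148, unadjusted p = 0.00628, adjusted p = 0.0946), which did not pass.

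Igf2r, the clearance receptor, was almost level. Its values were 5805 and 6380 in CD1 luminal, 6250 and 6331 in DNp63 luminal, with 5599 and 5306 in CD1 basal against 5277 and 4588 in DNp63 basal libraries. Luminal libraries were all slightly above basal ones. The difference between the CD1 gates was -0.17 (SE 0.113, adjusted p = 0.247), and Igf2r fell by 0.32 (adjusted p = 0.0409) from DNp63 luminal to DNp63 basal cells. That call was lost with median-of-ratios scaling (-0.26, adjusted p = 0.0864), with no filter on low values (adjusted p = 0.0638), and in 7 of the 8 fits that left out 1 library, all but the fit without the first DNp63 basal library. The call against CD1 luminal cells (-0.34, adjusted p = 0.037) was lost in 7 of the 8 as well, and without a TMM factor (adjusted p = 0.0555), with no filter (adjusted p = 0.058) and with only the compared groups (adjusted p = 0.107). Per kb of exon, the level of Igf1r was 0.114 to 0.174 times that of Igf2r in the 4 luminal libraries and 0.572 to 0.770 times in the 4 basal ones, without overlap. Igf2r lies on chromosome 17 (12682406 to 12769664, minus strand), and its antisense gene Airn shares no exon base with it.

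**Figure D2:**
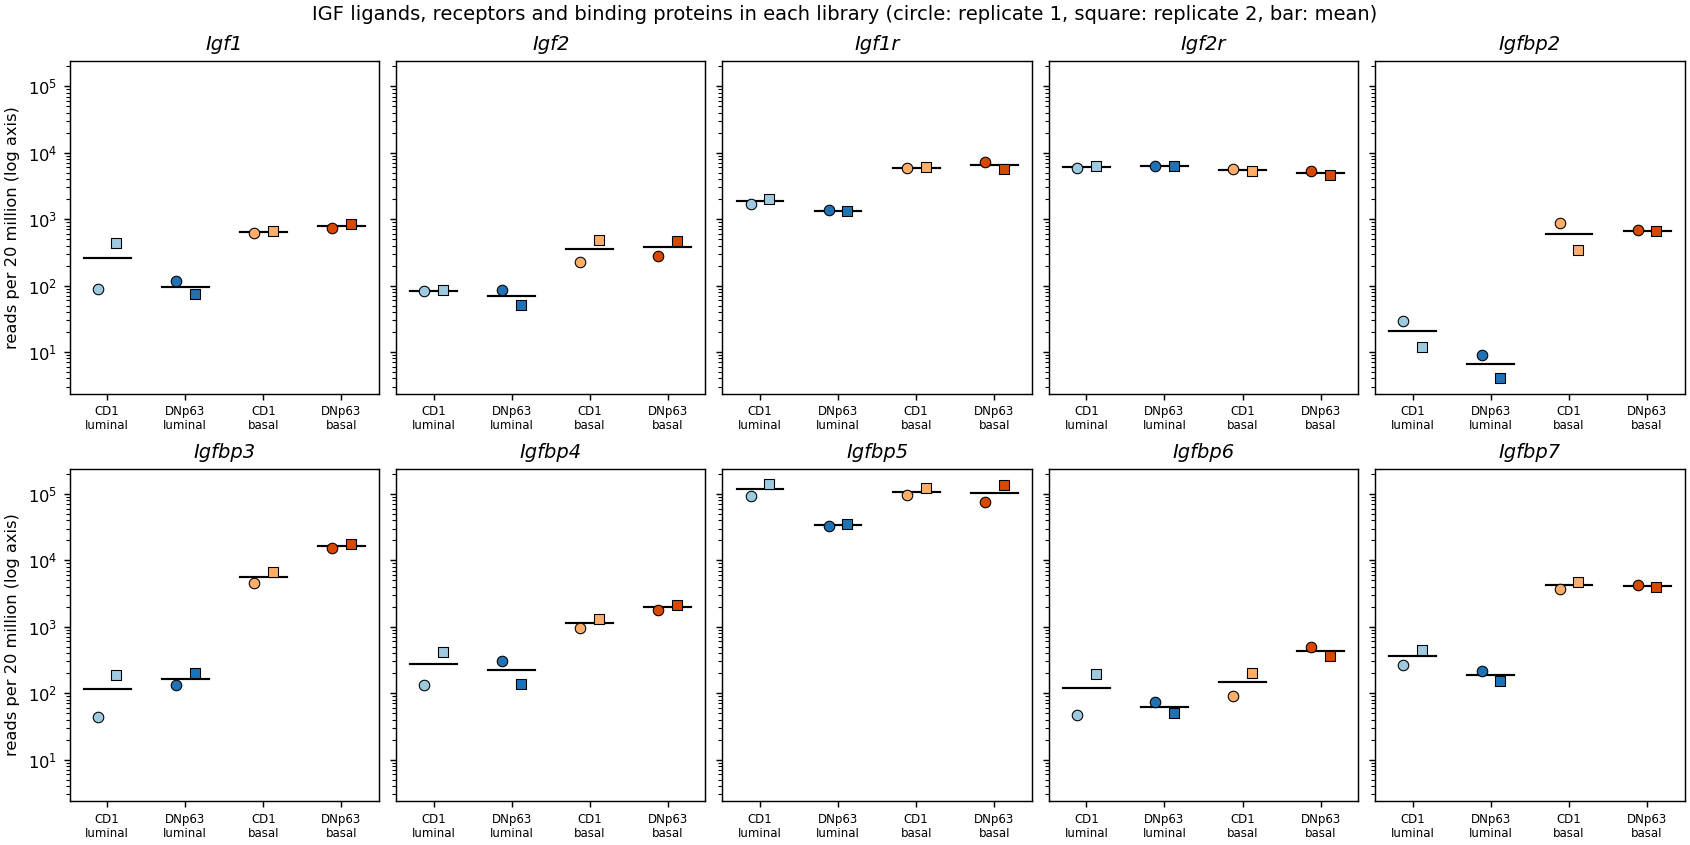
Values of the 10 IGF genes in each library on 1 shared log axis (reads per 20000000), with circles and squares for the first and second library of a group and bars for group means. Igf2r lies within 4588 and 6380 in all 8 libraries, while Igfbp3 spans 43 to 17578.

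Among the binding proteins, Igfbp5 had the highest level per kb in every library and was the only IGF gene called between the mice in the luminal gate. Its values were 91980 and 141532 in CD1 luminal, 32936 and 34666 in DNp63 luminal, with 95918 and 120411 in CD1 basal against 75674 and 133387 in DNp63 basal libraries. The DNp63 luminal libraries were below all 6 others, which overlapped one another. By value Igfbp5 ranked 4 to 8 among all genes in those 6 libraries and 30 and 31 in DNp63 luminal. It fell by 1.81 (SE 0.291, adjusted p = 0.0113) from CD1 luminal to DNp63 luminal cells, to a mean of 33801 ± 1223 from 116756 ± 35039 (SD, n = 2). Without either DNp63 luminal library the difference was about as large but not called (-1.78 without the first, adjusted p = 0.0754, and -1.84 without the second, adjusted p = 0.0874). From DNp63 luminal to DNp63 basal cells it rose by 1.60 (adjusted p = 0.00205), a call that held in all 17 settings. The differences between the CD1 gates (-0.10, SE 0.291, adjusted p = 0.807) and between the basal groups (-0.11, adjusted p = 0.939) were not called. The test of the difference between these mouse effects gave 1.70 (SE 0.411, unadjusted p = 0.00272, adjusted p = 0.149) and was not called.

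Igfbp3, which carries most IGF in blood, had the widest range. It stood at 43 and 189 in CD1 luminal, 131 and 200 in DNp63 luminal, with 4611 and 6552 in CD1 basal against 15127 and 17578 in DNp63 basal libraries. The luminal groups overlapped, CD1 basal libraries were far above them, and DNp63 basal libraries were higher again without overlap. Igfbp3 rose by 5.77 (SE 0.522, adjusted p = 5.34e-05) between the CD1 gates and by 6.61 (adjusted p = 1.99e-05) between the DNp63 gates, and both calls held in all 17 settings. DNp63 basal cells had 16352.5 ± 1733 against 5581.5 ± 1372 in CD1 basal cells (SD, n = 2), a difference of 1.55 (SE 0.522) that limma did not call (unadjusted p = 0.0163, adjusted p = 0.293). It was called by voom (1.57, adjusted p = 0.0422), in the fit of the basal libraries alone (1.59, adjusted p = 0.0197), and without the first (adjusted p = 0.0212) or second (adjusted p = 0.0208) CD1 luminal library. The difference of DNp63 luminal from CD1 luminal cells, 0.71, was not called (adjusted p = 0.568), although without the second CD1 luminal library Igfbp3 was called higher there (1.68, adjusted p = 0.0173). Igfbp3 (ENSMUSG00000020427) lies on chromosome 11 (7206086 to 7213923, minus strand).

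The windows of 250 bases before the transcription starts of Igfbp3, the gene with the largest gate difference, of Igf1r, which rose with it in basal cells, and of Igfbp5, which was not called between the CD1 gates, are printed here from RefSeq (GRCm38.p6), 5′ to 3′ on the strand of the gene. All 10 genes had a window in that table. Capitals mark matches on either strand to TATAAA (a core promoter motif), GGGCGG (a GC box), CACCTG (an E-box of the kind Snai2 binds) or to the p53 family core pair, a spaced repeat of CATG.
Igfbp3 (chr11:7213924-7214173, minus strand): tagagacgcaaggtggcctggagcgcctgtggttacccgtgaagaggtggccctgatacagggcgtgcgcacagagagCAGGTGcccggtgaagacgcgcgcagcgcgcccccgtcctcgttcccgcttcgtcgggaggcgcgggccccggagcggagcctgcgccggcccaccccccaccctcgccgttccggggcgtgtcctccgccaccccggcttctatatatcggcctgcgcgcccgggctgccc
Igf1r (chr7:67952007-67952256, plus strand): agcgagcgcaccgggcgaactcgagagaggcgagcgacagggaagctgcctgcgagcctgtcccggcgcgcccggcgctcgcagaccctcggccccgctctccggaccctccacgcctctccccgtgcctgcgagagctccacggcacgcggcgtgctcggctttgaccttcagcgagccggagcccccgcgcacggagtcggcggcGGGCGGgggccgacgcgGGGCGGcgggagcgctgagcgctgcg
Igfbp5 (chr1:72874866-72875115, minus strand): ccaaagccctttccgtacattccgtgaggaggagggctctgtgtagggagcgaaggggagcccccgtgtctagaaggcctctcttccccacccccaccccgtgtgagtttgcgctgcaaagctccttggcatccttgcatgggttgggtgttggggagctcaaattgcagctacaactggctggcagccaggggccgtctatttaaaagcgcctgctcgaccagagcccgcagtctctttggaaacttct
The Igfbp3 window held 1 CACCTG match, which 17.2% of all 32851 windows also held. The Igf1r window held 2 GGGCGG matches (32.7% of windows held any), and its 42 CG pairs exceeded those of 99.1% of windows. The Igfbp5 window held no match to the 4 motifs and had 10 CG pairs, against 32 in Igfbp3 and a median of 6. The p53 family core pair was in none of the windows of the 10 genes and in 0.5% of all windows. These matches describe letters in these windows only.

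Igfbp2 and Igfbp5 are neighbours on chromosome 1, tail to tail with 5.5 kb between them, and did not share a pattern. Igfbp2 was nearly absent from luminal cells, at 29 and 12 in CD1 and 9 and 4 in DNp63 libraries, or 1 to 8 reads each. Basal libraries had 870 and 344 in CD1 and 683 and 663 in DNp63 mice, all far above the luminal ones. Igfbp2 (72824503 to 72852474, plus strand) rose by 4.35 (SE 0.469, adjusted p = 0.000135) between the CD1 gates. Between the DNp63 gates it rose by 5.58 (adjusted p = 2.81e-05), a size that depends on the pseudocount (6.60 with 1 and 3.94 with 40), since the DNp63 luminal libraries had 3 reads and 1 read. The difference between the basal groups, 0.28, was not called (adjusted p = 0.9).

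Igfbp7, a protein of vessel walls and matrix with low affinity for IGFs, followed the gate closely. It stood at 266 and 452 in CD1 luminal, 217 and 153 in DNp63 luminal, with 3727 and 4695 in CD1 basal against 4169 and 3907 in DNp63 basal libraries. The basal groups overlapped, and the DNp63 luminal libraries were the lowest. Igfbp7 rose by 3.55 (SE 0.265, adjusted p = 1.94e-05) between the CD1 gates and by 4.44 (adjusted p = 4.43e-06) between the DNp63 gates, and both calls held in all 17 settings. The DNp63 luminal difference from CD1 luminal cells was -0.96 (unadjusted p = 0.00595, adjusted p = 0.0916), and it was called without the first CD1 luminal library (-1.33, adjusted p = 0.0163). Of the 16 endothelial genes, 15 were called higher in the same gate of either mouse. Of all tested genes, 24.2% were called higher between the CD1 gates and 24.9% between the DNp63 gates. Among the endothelial genes Cldn5, Erg and Sox17 passed the filter only through their basal libraries. Cdh5, a junction protein of vessels, stood at 348 and 323 in CD1 luminal and 15016 and 14684 in CD1 basal libraries. The part of vessel cells in the Igfbp7 values was not tested. Of the exon bases of Igfbp7 (chromosome 5, 77349240 to 77408041, minus strand), 7.0% overlap Polr2b on the opposite strand.

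Igfbp4, an inhibitor of IGF action that PAPP-A cuts, rose from luminal to basal cells in both mice. Its values were 132 and 419 in CD1 luminal, 303 and 137 in DNp63 luminal, with 953 and 1314 in CD1 basal against 1800 and 2108 in DNp63 basal libraries. The luminal groups overlapped and the basal groups did not. The difference was 2.19 (SE 0.509, adjusted p = 0.00789) between the CD1 gates and 3.23 (adjusted p = 0.000958) between the DNp63 gates. The first was lost without the second CD1 basal library (adjusted p = 0.0598) and was 1.39 without the first CD1 luminal library. The difference between the basal groups, 0.78, did not pass (adjusted p = 0.645).

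Igfbp6, which prefers IGF2, was highest in DNp63 basal cells. It stood at 47 and 193 in CD1 luminal, 73 and 51 in DNp63 luminal, with 92 and 204 in CD1 basal against 498 and 358 in DNp63 basal libraries. The CD1 luminal libraries overlapped both the DNp63 luminal and the CD1 basal libraries, which did not overlap each other. The DNp63 basal libraries were above all of these. Igfbp6 (chromosome 15, 102144362 to 102149511, plus strand) rose by 2.66 (SE 0.597, adjusted p = 0.00601) between the DNp63 gates. The difference between the CD1 gates, 0.46, was not called (adjusted p = 0.565), but without the second CD1 luminal library Igfbp6 was called higher in CD1 basal cells (1.40, adjusted p = 0.048). Against CD1 luminal cells, DNp63 basal cells were called higher by 2.01 (adjusted p = 0.0225), a call lost without the first CD1 luminal library (1.12, adjusted p = 0.0942) or without the first (1.78, adjusted p = 0.122) or second (2.23, adjusted p = 0.0643) DNp63 basal library, and with no filter (adjusted p = 0.0508). The difference between the basal groups, 1.55, did not pass (unadjusted p = 0.0298, adjusted p = 0.366). Summed fibroblast markers were highest in the same DNp63 basal libraries, where Col1a1, Col1a2 and Col3a1 made up most of the sums. Of the markers in that list, Dpt, Pi16, Clec3b, Fap and Gsn had their highest values in libraries of other groups. The part of fibroblasts in the Igfbp6 values was not tested.

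**Figure D3:**
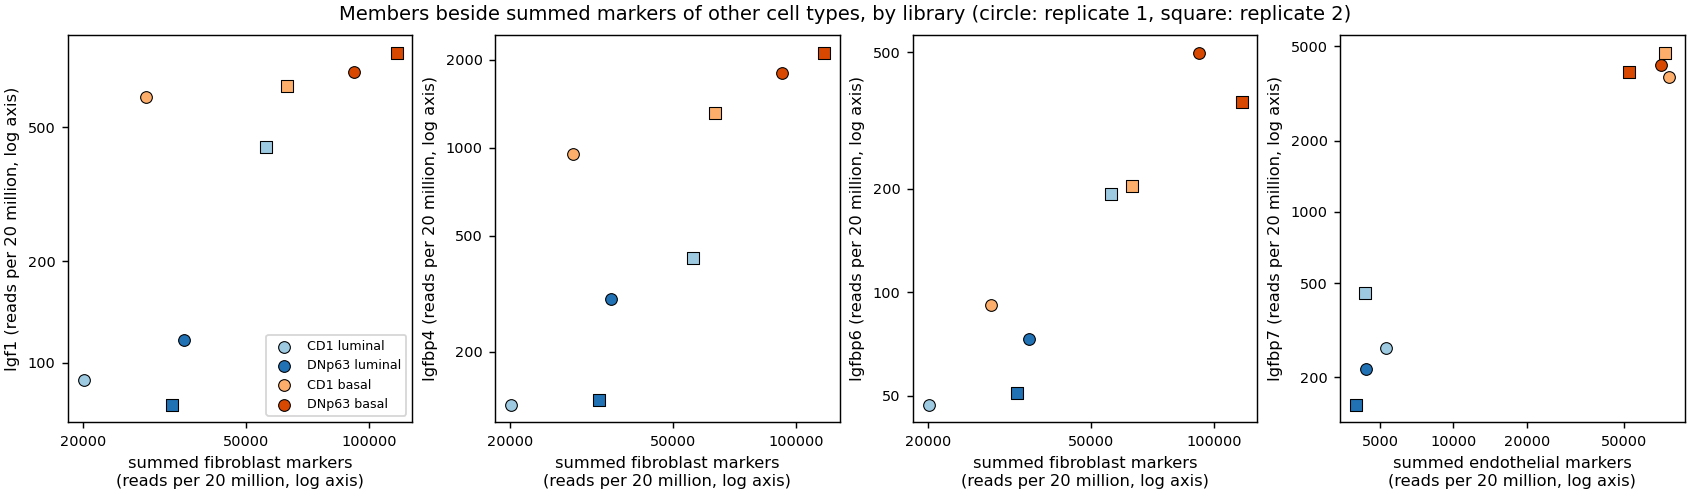
Igf1, Igfbp4 and Igfbp6 (vertical log axes, reads per 20000000) against summed values of 16 fibroblast markers (horizontal log axes), and Igfbp7 against 16 endothelial markers, by library. The second CD1 luminal library (light blue square) has both more fibroblast transcripts than the first (56113 against 20112) and more Igf1, Igfbp4 and Igfbp6.

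Set on a common scale of reads per kb of exon, Igfbp5 made up 97.9% and 97.1% of the summed binding protein level in CD1 luminal, 93.8% and 95.5% in DNp63 luminal, with 75.0% and 75.1% in CD1 basal against 57.0% and 68.9% in DNp63 basal libraries. The basal groups did not overlap the luminal ones, and the DNp63 basal libraries had the lowest shares. Igfbp3 made up 21.9% and 17.4% of the sum in DNp63 basal, 6.92% and 7.84% in CD1 basal, and at most 1.06% in luminal libraries. Igfbp7 made up 10.0% to 15.6% in basal and 1.41% to 3.07% in luminal libraries. The sum over all 6 was 5844 and 6041 per kb in DNp63 luminal libraries, lower than the 15636 to 32215 of the other 6. Without Igfbp5 the sum was 269.5 to 709.2 in luminal libraries, against 5325 and 6644 for CD1 basal and 9506 and 10006 for DNp63 basal. By mean level per kb, the ligands were below both receptors in every group.

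**Figure D4:**
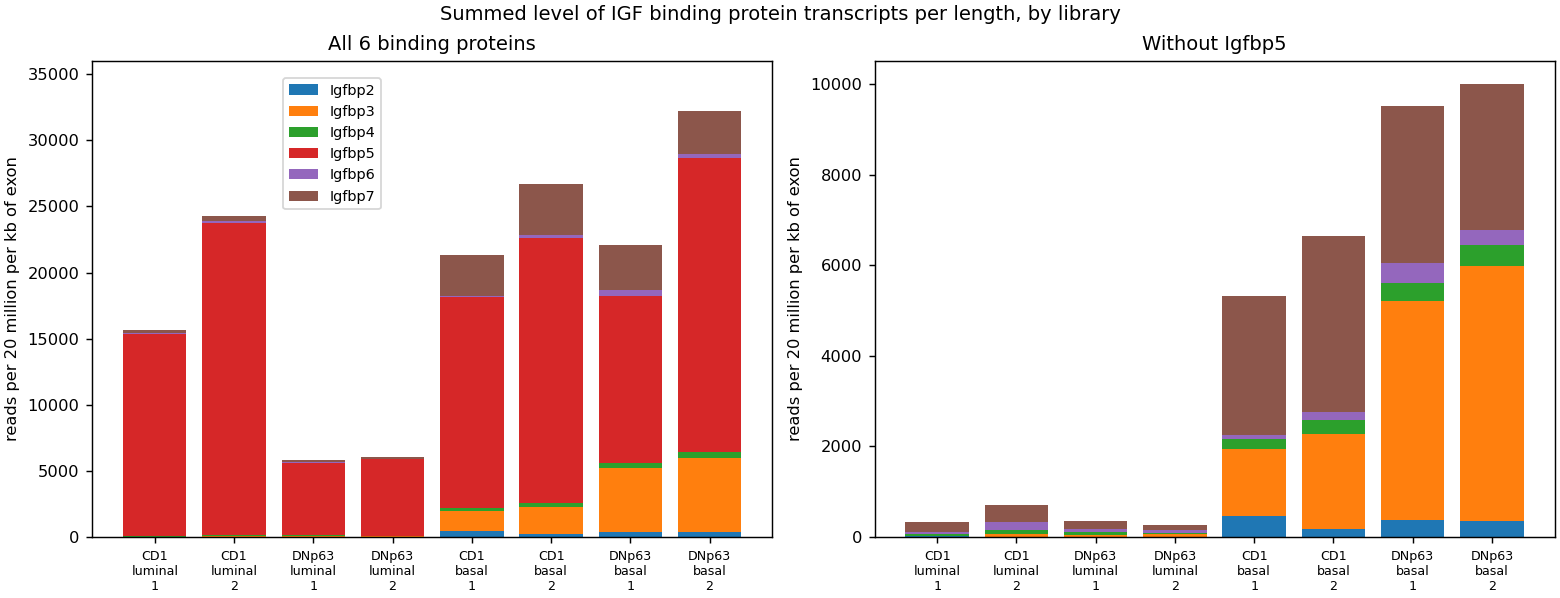
Stacked levels of the 6 binding protein transcripts per kb of exon in each library (linear axes, reads per 20000000 per kb), with Igfbp5 in the left panel and without it in the right. Igfbp5 fills most of every bar on the left, and the right panel shows Igfbp3 and Igfbp7 making up most of the remainder in basal libraries.

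Of the other genes of the IGF system, the protease gene Pappa and Stc2, which encodes an inhibitor of the protease, stood on opposite sides of the gate. Of 13 further extracellular parts and receptors 8 were tested, and 4 were called higher and 2 lower from CD1 luminal to CD1 basal cells, against 24.2% and 20.1% of all genes (median 0.54, against -0.01). Pappa, which encodes the protease PAPP-A, stood at 40 and 52 in CD1 luminal, 84 and 98 in DNp63 luminal, with 2047 and 3031 in CD1 basal against 6571 and 7180 in DNp63 basal libraries. No groups overlapped, and the order was that of Igfbp3. Pappa rose by 5.53 (SE 0.229, adjusted p = 1.12e-06) between the CD1 gates and by 6.15 (adjusted p = 5.34e-07) between the DNp63 gates. It was also higher in DNp63 basal than in CD1 basal cells (1.44, adjusted p = 0.0355). That call was lost in 6 of the 8 fits that left out 1 library, held only without the first (adjusted p = 0.0183) or second (adjusted p = 0.0179) CD1 luminal library, and had an adjusted p of 0.0508 to 0.289 without a DNp63 luminal, CD1 basal or DNp63 basal library. It was lost too with a pseudocount of 1 (adjusted p = 0.0503) and with no filter (adjusted p = 0.0985). Stc2, a secreted inhibitor of PAPP-A, had 8918 and 5594 in CD1 luminal and 6372 and 8010 in DNp63 luminal libraries. Its basal values were lower, at 1269 and 595 for CD1 and 190 and 339 for DNp63 mice, without overlap. It fell by 3.02 (adjusted p = 0.000306) between the CD1 gates and by 4.74 (adjusted p = 2.11e-05) between the DNp63 gates. Stc1, which encodes the other stanniocalcin and was picked after its values were seen, had means of 415.5 in CD1 luminal, 353.5 in DNp63 luminal, 342 in CD1 basal and 299 in DNp63 basal cells, with overlap. It was called neither between the CD1 gates (-0.17, adjusted p = 0.752) nor between the DNp63 gates (-0.20, adjusted p = 0.688).

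Among the remaining parts, Htra1, a protease that can cut IGFBP5, rose by 2.94 (adjusted p = 0.0162) between the CD1 gates, from 47 and 467 to 912 and 1689, a call lost without the second CD1 basal library (2.47, adjusted p = 0.105) or with only the compared groups (adjusted p = 0.0583), and the difference was 1.39 without the first CD1 luminal library. Pappa2, a related protease, had 22 and 4 in CD1 luminal and 275 and 36 in CD1 basal libraries (adjusted p = 0.0316), a call lost without the second CD1 luminal (adjusted p = 0.14), first CD1 basal (adjusted p = 0.198) or either DNp63 basal library (adjusted p = 0.0525 and 0.0515). It was also lost with a pseudocount of 1 (adjusted p = 0.066), with no filter (adjusted p = 0.0722) and by voom (adjusted p = 0.105). Pappa2 was under the filter value in all 4 luminal libraries and entered the test through its basal libraries alone. Igfals, which encodes the acid-labile subunit of the IGF carrier complex, was called lower in CD1 basal cells, at 92 and 48 against 685 and 245 (adjusted p = 0.00285), and Ghr, the growth hormone receptor, was called higher, at 1127 and 1773 against 561 and 949 (adjusted p = 0.0288). The insulin receptor gene Insr was not called (adjusted p = 0.415), at 2678 and 3301 in CD1 luminal and 3306 and 3302 in CD1 basal libraries. Ins1 and Ins2, the insulin genes, were at 0 in all 8 libraries. Igfals, Ghr, Insr, Ins1 and Ins2 were picked after their values were seen.

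Downstream of the receptor, 9 of 23 tested signalling genes were called higher and 5 lower from CD1 luminal to CD1 basal cells (median 0.33, against -0.01 for all genes), and 9 higher and 2 lower between the DNp63 gates (median -0.03, against -0.08). Of all tested genes 24.2% were called higher and 20.1% lower between the CD1 gates, and 24.9% and 24.4% between the DNp63 gates, where 49.2% were called in all. The count of signalling genes called between the DNp63 gates was near that background. Irs2, an adaptor that IGF1R phosphorylates, rose by 2.01 (adjusted p = 6.09e-06) between the CD1 gates, from 3897 and 4412 to 15914 and 17893, and stood at 18313 and 18555 in DNp63 basal libraries. Irs4, a further adaptor, was near the detection limit, at a mean of 9.5 in CD1 luminal and 41.5 in CD1 basal cells, and entered the test through basal libraries alone. Grb10, an adaptor that restrains the receptor, rose by 1.37 (adjusted p = 0.00188) between the CD1 gates. Between the DNp63 gates, Pik3r1, a regulatory subunit of PI3-kinase, rose by 1.15 (adjusted p = 0.00123), from 4013 and 4719 to 8468 and 10535. In DNp63 luminal against CD1 luminal cells 1 of the 23 was called, against 4.43% of all genes. It was Grb14, a related adaptor, which fell by 1.51 (adjusted p = 0.0229), from 1096 and 1775 to 461 and 552. That call was lost without the second CD1 luminal (-1.16, adjusted p = 0.0806), the first DNp63 luminal (-1.39, adjusted p = 0.131) or the second DNp63 luminal library (-1.63, adjusted p = 0.113), with no filter (adjusted p = 0.0637) and with only the compared groups (adjusted p = 0.0535).

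Of 9 RNA-binding partners and imprinted genes related to Igf2, 7 were tested, and 3 were called higher and 1 lower from CD1 luminal to CD1 basal cells, against 44.3% of all genes called, 24.2% higher and 20.1% lower (median 0.57, against -0.01 for all genes). The imprinted genes Cdkn1c, a cell cycle inhibitor, and Dlk1 were higher, Cdkn1c by 3.35 (adjusted p = 0.00155) from 15 and 63 to 303 and 543. Cdkn1c passed the filter only through its basal libraries. Dlk1 stood at 4 and 4, or 1 read each, in CD1 luminal and at 60 and 160 in CD1 basal libraries (adjusted p = 0.00198), and it too entered the test through its basal libraries alone. H19, which shares an imprinted domain with Igf2, was picked after its values were seen and was not called (adjusted p = 0.631), at 206 and 52 in CD1 luminal and 110 and 236 in CD1 basal libraries. Airn, the RNA antisense to Igf2r, was called higher by 0.65 (adjusted p = 0.0235), a call lost without the first (adjusted p = 0.0535) or second (adjusted p = 0.0591) library of CD1 luminal cells or the first of CD1 basal cells (adjusted p = 0.129). Igf2bp2, which encodes an RNA-binding protein, was called lower, at 161 and 148 against 238 and 375 (adjusted p = 0.0194), a call lost without the second CD1 luminal (adjusted p = 0.113), first CD1 basal (adjusted p = 0.065) or second CD1 basal library (adjusted p = 0.0831), and with only the compared groups (adjusted p = 0.0546).

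**Figure D5:**
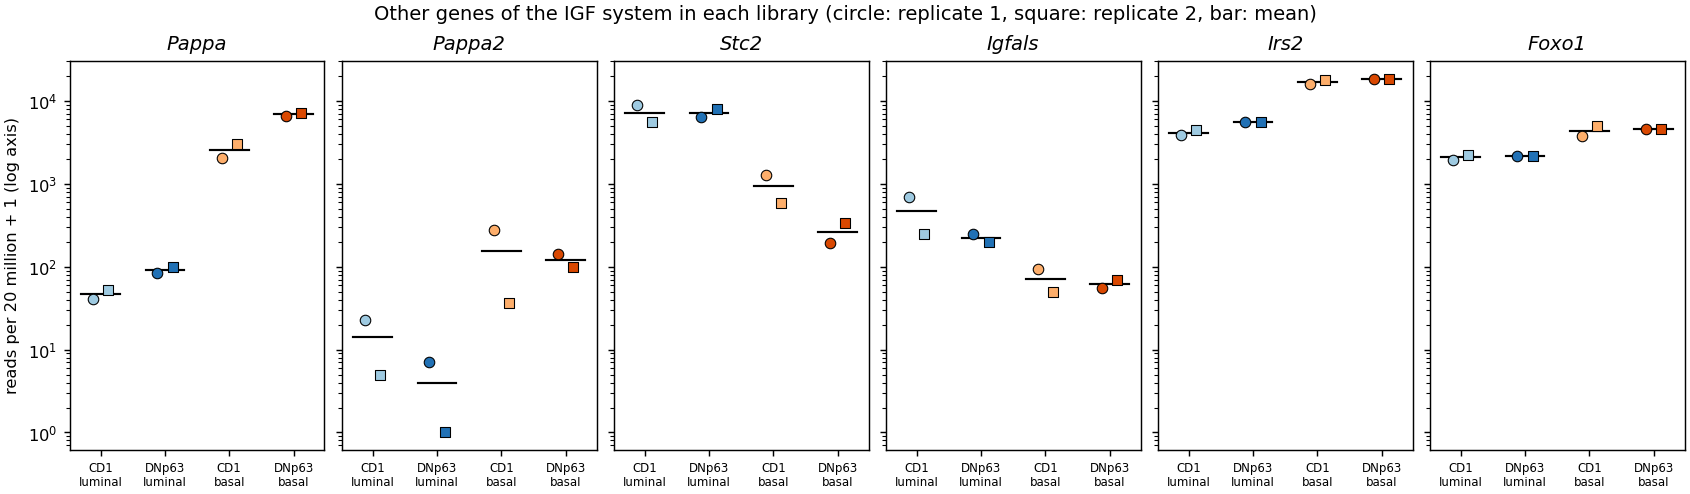
Values of 6 other genes of the IGF system in each library on a shared log axis (reads per 20000000 + 1), with circles and squares for the first and second library of a group and bars for group means. Pappa climbs from 40 in the lowest CD1 luminal to 7180 in the highest DNp63 basal library, while Stc2 declines from 8918 to 190.

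The genes whose log2 profiles over the 8 libraries lay closest to the other IGF genes were found among 12355 genes with a mean of at least 100. For Igf1r these were Nectin3 (Pearson r = 0.998) and Maml2 (r = 0.997), and for Igfbp7 they were Fam217b and Pcdh19 (r = 0.998 for both). For Igfbp3 they were Mical1 (r = 0.997) and Sh3rf3 (r = 0.996), and for Igfbp4 Fbln7 (r = 0.996) and Apbb1 (r = 0.992). For Igfbp2 they were Hacd1 (r = 0.994) and Malt1 (r = 0.993), and for Igf2 Morc2a (r = 0.990) and Rnd3 (r = 0.986). For Igfbp6 they were Gm11946 (r = 0.989) and Frem1 (r = 0.986), and for Igf2r Ralgps1 (r = 0.992) and 2700078F05Rik (r = 0.988). Igfbp5 had the least close neighbours, Mob3b (r = 0.962) and Ppt1 (r = 0.958), and Mob3b was likewise lowest in DNp63 luminal libraries, at 550 and 517 against 1146 and 1119 in CD1 luminal. These r values describe 8 points that share gate, mouse line and depth. Of these neighbours, Fam217b, Sh3rf3, Hacd1, Fbln7 and Frem1 passed the filter on low values only through their basal libraries.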

How the data were processed

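RNA was sequenced from 8 libraries of sorted mouse mammary cells (Ovation Solo libraries, NovaSeq, per the labels' protocols). The submitters' processing notes name STAR, HTSeq and GRCm38 (mm10), with version, annotation and strand setting not given in the sources used here. Values as deposited are a score: read counts that the authors scaled to 20000000 per library and rounded up, as the labels and the values show. Because these are not raw counts, log2(value / TMM factor + 8) was fitted, dividing each value by its library's factor. The software was limma 3.58.1 (R 4.3.3), with an intensity trend and a mean for each of the 4 groups. Degrees of freedom were 4 residual and 4.691 prior. TMM factors trimmed 30% and 5%. Tests were two-sided over 16900 genes with at least 40 in at least 2 libraries, and a Benjamini-Hochberg adjusted p under 0.05 was called. Fold changes on this scale understate those of low genes. The code was tested on simulated data.

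Groups came from strain and surface markers in the labels. Exon lengths and positions came from GENCODE M21 (49326 of 49671 genes found) and promoters from RefSeq. Alternatives were no TMM factor, median-of-ratios scaling, pseudocounts of 1 and 40, no filter, a filter of 200, limma voom on recovered reads, only the compared groups, a replicate block, and leaving out each library. The 10 genes and the gene lists were chosen with earlier results of these data known. Named were the 10 genes, up to 4 called genes with the largest differences of each pathway list per comparison, the leading markers of each marker list, and the 2 genes closest in profile to each of the 10. One gene that this rule names is not reported here.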

Additional observations from a re-analysis of the deposited data

How the results depend on the processing

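With 2 libraries a group, single libraries moved many calls. Leaving out 1 library at a time, the number of the 10 IGF genes called was 4 to 8 between the CD1 gates, 0 to 3 between the luminal groups, 0 to 1 between the basal groups, 9 to 10 between the DNp63 gates, 6 to 8 for DNp63 basal against CD1 luminal, and 0 to 1 in the interaction of gate and mouse. Over all genes the same ranges were 5346 to 7077, 142 to 984, 3 to 190, 5821 to 8739, 5865 to 7597 and 4 to 163. Between the luminal groups 748 genes were called, 442 with no filter and 314 with only the compared groups. Between the basal groups 121 were called, 45 with no filter and 65 by voom, and of the 10 IGF genes voom and the fit of the compared groups each called 1. In the interaction 58 were called, 119 with a pseudocount of 40, 10 with no filter and 22 by voom. The cause was not tested.

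The replicate numbers of the titles are not stated to mark a shared animal or day. The deviations of same-numbered libraries correlated at 0.34 between the CD1 groups and 0.27 between the DNp63 groups, and at -0.01 to 0.04 across mice. With the replicate block, 203 genes were called between the basal groups and 128 in the interaction, where 1 of the 10 IGF genes, Igfbp5, was called (1.70, adjusted p = 0.0382). That block fitted 1 shift between replicate numbers, shared by both mice. A pairing of the gates within each mouse line was not fitted, so the Igfbp5 call does not account for it. The p-values of the gate comparisons above do not account for it either.

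The differences that changed sign were all uncalled before, and the cause was not tested. Igf2r between the luminal groups was 0.0478 without a TMM factor. Leaving out 1 library, the log2 differences that reversed had these ranges. Between the CD1 gates Igfbp5 was -0.403 to 0.222 and Igfbp6 -0.471 to 1.40. Between the luminal groups Igf1 was -2.19 to 0.0186, Igf2r -0.0803 to 0.0591, Igfbp3 -0.270 to 1.68, Igfbp4 -1.07 to 0.547 and Igfbp6 -1.59 to 0.280. Between the basal groups Igf2 was -0.459 to 0.670, Igf1r -0.0786 to 0.285, Igfbp2 -0.356 to 0.910, Igfbp5 -0.527 to 0.300 and Igfbp7 -0.260 to 0.125. For DNp63 basal against CD1 luminal Igfbp5 was -0.627 to 0.200, and in the interaction Igf2 was -0.108 to 1.02 and Igfbp3 -0.0888 to 1.87. Depth limits Igfbp2 in luminal cells, at 1 to 8 reads.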
